A study of Homo sapiens with 6 samples.

Results

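The genes described here encode the TCF/LEF transcription factors, which carry beta-catenin onto DNA, and the Groucho/TLE corepressors, which bind the same factors when beta-catenin is absent. They were listed as a family, and the list was made with earlier results of these data known. Of 8 listed genes, 7 had at least 1 probe set that named them alone: TCF7L1, TCF7L2, LEF1 and TLE1 to TLE4, with 27 probe sets among the 54613 on the array that are not controls. TCF7 was not analysed here. Their levels were read on Affymetrix U133 Plus 2.0 arrays from DLD1, a cell line established from a human colorectal adenocarcinoma. The compared cultures received 10 µM SAH-BCL9B for 12 h (3 arrays) or DMSO vehicle for 12 h (3 arrays). SAH-BCL9B is a hydrocarbon-stapled peptide modelled on the helix of BCL9 that binds beta-catenin. Both groups are the same line, so every value comes from 1 genetic background, in which truncated APC leaves beta-catenin stable, and no control peptide was part of the 6 arrays. The labels call the cultures triplicates, and p-values measure the spread between those arrays.

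As background, TCF/LEF proteins recognise DNA through an HMG box and have little transcriptional activity of their own. Without beta-catenin they recruit TLE proteins, which bring histone deacetylases. Stabilised beta-catenin displaces TLE and in turn recruits BCL9 and Pygopus. TCF7L2, also called TCF4, is the main family member of the intestinal epithelium. LEF1 is low in normal colon and is often switched on in colorectal tumours, and TCF7L1 is mostly known as a repressor.

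The values are log2 expression levels, 1 per probe set and array, and a difference of 1 is a 2-fold difference. Array medians ran from 6.58 to 6.62. All 14 of 14 colorectal epithelium markers had a vehicle mean above the median array level, EPCAM, KRT18 and CDH1 among them. The dimmest were GPA33 (6.61), CDX1 (7.12), CEACAM5 (7.17) and LGALS4 (7.22). These lie under 7.62, the highest level of the tissue-restricted probe sets described below, those of MBP aside. Of the 15 markers of other cell types, 4 had a vehicle mean above the median array level. The median level of the epithelial list was 11.08 to 11.28 in the SAH-BCL9B arrays and 11.00 to 11.03 in the vehicle arrays. Of its 14 genes, at 1 probe set each, limma called VIL1, an actin-bundling protein of microvilli, lower (-0.86, adjusted p = 0.00989) and KRT8, a keratin of simple epithelia, higher (0.50, adjusted p = 0.0305), against 3.53% of all genes. In 9 of the 14 the groups did not overlap, against 28.3% of all genes. VIL1 missed the threshold without 4 of the 6 arrays in turn (adjusted p = 0.0512 to 0.0622) and KRT8 without 5 (0.103 to 0.133), and both passed without SAH-BCL9B 2. For the list of other cell types it was 6.21 to 6.38 in the SAH-BCL9B arrays and 6.26 to 6.46 in the vehicle arrays, and none of its genes passed the test. Array SAH-BCL9B 2 stood apart at the ACTB control. The difference between its 3′ and 5′ ACTB probe sets was 0.74. It was 1.20 and 1.33 in the other SAH-BCL9B arrays and 1.21 to 1.38 in the vehicle arrays. At the GAPDH control SAH-BCL9B 2 did not stand apart, with a difference of 0.14 inside the range of the other arrays (0.09 to 0.17). The main results that rest on that array are given with and without it, but not those of every probe set.

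In vehicle DLD1 cells the brightest probe set of TCF7L2, 212761_at, read 13.44 ± 0.07 (SD, n = 3). That of LEF1, 221558_s_at, read 12.12 ± 0.06. The only probe set of TCF7L1, 221016_s_at, read 6.41 ± 0.18, just under the array medians. Among the corepressors the brightest probe set of each gene read 11.48 ± 0.13 for TLE4 (204872_at), 10.20 ± 0.02 for TLE1 (203221_at), 9.57 ± 0.11 for TLE3 (212770_at) and 6.71 ± 0.12 for TLE2 (40837_at).

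Probe sets differ in affinity, so these signals give no order of RNA amounts between the genes. Probe sets of 1 gene also read far apart. The 3 probe sets of LEF1 ran from 6.06 to 12.12 in the same vehicle arrays, a span of 6.06, and those of TCF7L2, TLE1 and TLE4 spanned 4.92, 4.80 and 4.75. TLE3 (span 1.41) and TLE2 (0.10) were more even. Over the 10523 genes with several probe sets the median span was 2.09.

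A list of tissue-restricted genes, such as those of insulin, albumin and tyrosinase, gave a scale for signals without expected expression. Its 50 probe sets for 24 genes had vehicle means of 3.68 to 10.25 with a median of 5.56. The 3 highest all named the myelin gene MBP, whose locus also makes transcripts outside myelin-forming cells. The other 41 probe sets, which name genes other than MBP, reached 7.62. Of the 27 member probe sets, 10 lay at or under that value: 4 of TLE4, 2 of TLE1, both of TLE2, 1 of LEF1 and the one of TCF7L1. No probe set of TCF7L2 or TLE3 did.

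**Figure D1:**
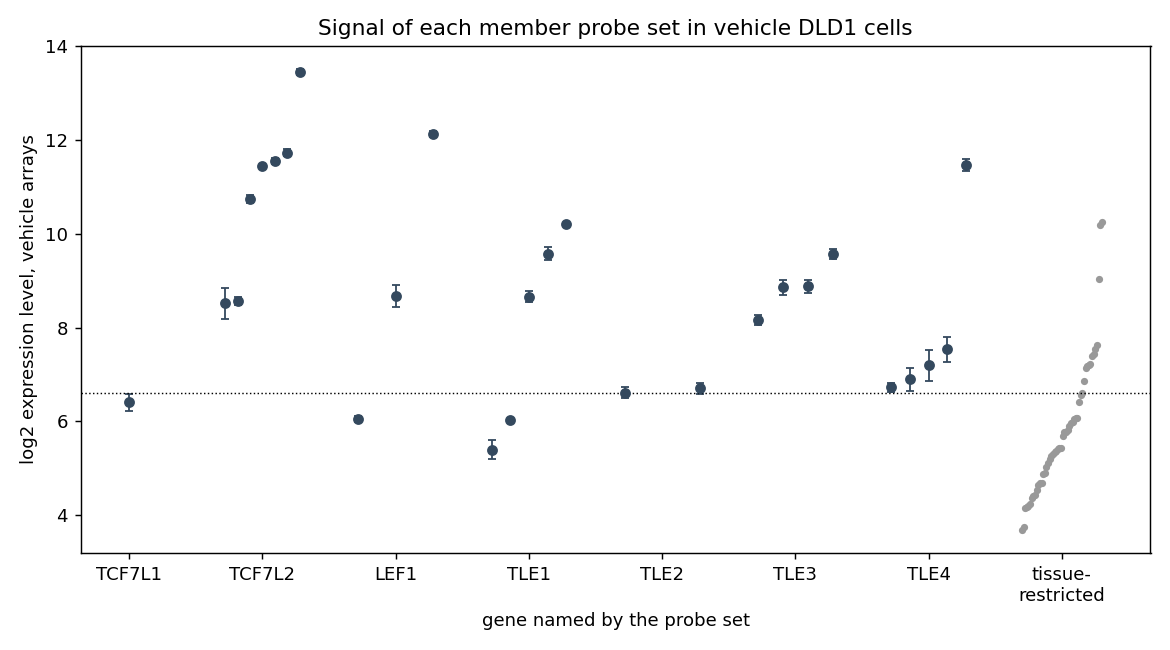
Log2 expression level in the 3 vehicle arrays (mean with SD as bars) of every member probe set, grouped by gene on the horizontal axis, with 50 probe sets of tissue-restricted genes in grey (means) and the mean array median as a dotted line. TCF7L2 reaches 13.44 and LEF1 12.12 at their brightest probe sets, while TLE2 and TCF7L1 stay at the median.

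After SAH-BCL9B, limma called 2 of the 27 probe sets at an adjusted p under 0.05, 1 of TLE4 upward and 1 of TCF7L2 downward. Over all 54613 probe sets, 2.5% passed, 1.12% upward and 1.37% downward. All 11 probe sets of the 3 TCF/LEF genes had a negative change, with a median of -0.33 log2, against a median of 0.01 over all probe sets, of which 46.8% were negative. Without SAH-BCL9B 2, 10 of the 11 were negative and their median was -0.18. Over all probe sets 51% were then negative and the median was -0.005. Of the 11, 7 name TCF7L2, so this count mostly restates 1 gene. The 16 TLE probe sets split into 9 positive and 7 negative, with a median of 0.01, and without SAH-BCL9B 2 into 6 positive and 10 negative, with a median of -0.03. The 3 SAH-BCL9B arrays lay wholly outside the 3 vehicle arrays in 9 of the 27, against 22% of all probe sets, 2 of them upward (TLE4; 12.3% of all probe sets) and 7 downward (5 of TCF7L2 and 2 of TLE3; 9.73% of all). With 1 probe set a gene, the brightest, 0 of the 7 genes passed when p-values were adjusted over 19775 genes, against 6.93% of all genes. Of the 7, 3 had an unadjusted p under 0.05 in limma. The share of all genes under that cut was not counted, so this count is no result about the members.

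**Figure D2:**
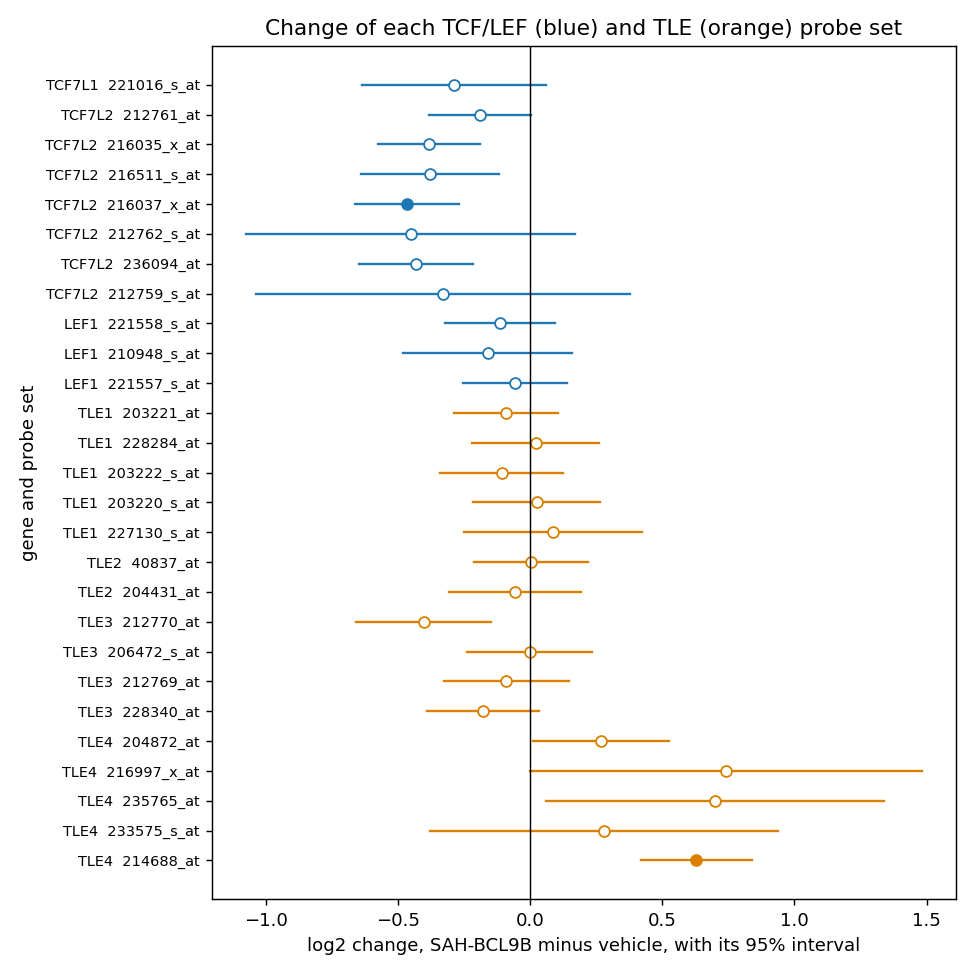
Log2 change (SAH-BCL9B minus vehicle) of the 27 probe sets, with the 95% interval from limma, TCF/LEF genes in blue and TLE genes in orange; filled points passed the adjusted p of 0.05. All 7 TCF7L2 points lie left of 0, all 5 TLE4 points lie right of it, and the filled ones are 216037_x_at at -0.46 and 214688_at at 0.63.

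TCF7L2 was the transcription factor with a called probe set, 216037_x_at, which fell. It read 10.97, 10.89 and 11.06 in the SAH-BCL9B arrays and 11.44, 11.41 and 11.46 in the vehicle arrays. The groups did not overlap, and the SAH-BCL9B mean was 1.38-fold lower, a log2 change of -0.46 ± 0.08 (SE, limma adjusted p = 0.0378, 95% interval -0.66 to -0.27). In a bulk culture, fewer cells with the transcript and less of it per cell cannot be told apart. Affymetrix marks probe sets ending in _x_at as ones whose probes may also bind other sequences. Without any 1 of the 6 arrays the change was -0.51 to -0.42, and the limma adjusted p was 0.0563 to 0.176, so that the call rests on all 6.

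The other 6 probe sets of TCF7L2 had negative changes that did not pass. At 216035_x_at the SAH-BCL9B arrays read 11.36, 11.36 and 11.32 and the vehicle arrays 11.76, 11.64 and 11.78, a change of -0.38 ± 0.08 (SE, limma adjusted p = 0.0616). At 236094_at they read 8.25, 8.09 and 8.08 with SAH-BCL9B and 8.61, 8.63 and 8.48 with vehicle, a change of -0.43 ± 0.09 (adjusted p = 0.06). In both, every SAH-BCL9B array was lower than every vehicle array. The same held for 216511_s_at, with 11.33, 10.97 and 11.22 against 11.63, 11.49 and 11.53 in vehicle (-0.38 ± 0.11, adjusted p = 0.149). It held too for the brightest, 212761_at, with 13.23, 13.23 and 13.31 in the SAH-BCL9B arrays and 13.49, 13.48 and 13.36 in the vehicle arrays. That probe set had the smallest change of the 7, -0.19 ± 0.08 (adjusted p = 0.334).

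In the last pair the change rested mainly on 1 array. At 212762_s_at the SAH-BCL9B arrays read 10.69, 9.59 and 10.58, against 10.81, 10.64 and 10.76 in vehicle. At 212759_s_at they read 8.64, 7.48 and 8.46, against 8.78, 8.15 and 8.64. Vehicle 2 was the lowest vehicle array in both (-0.14 and -0.56 against the mean of the other vehicle arrays). SAH-BCL9B 2 is the lowest of all arrays in both, and the other SAH-BCL9B arrays lie within the vehicle range or just under it. The changes were -0.45 ± 0.27 and -0.33 ± 0.30 with it (SE, adjusted p = 0.509 and 0.719) and -0.10 and 0.03 without it (adjusted p = 0.642 and 0.959).

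**Figure D3:**
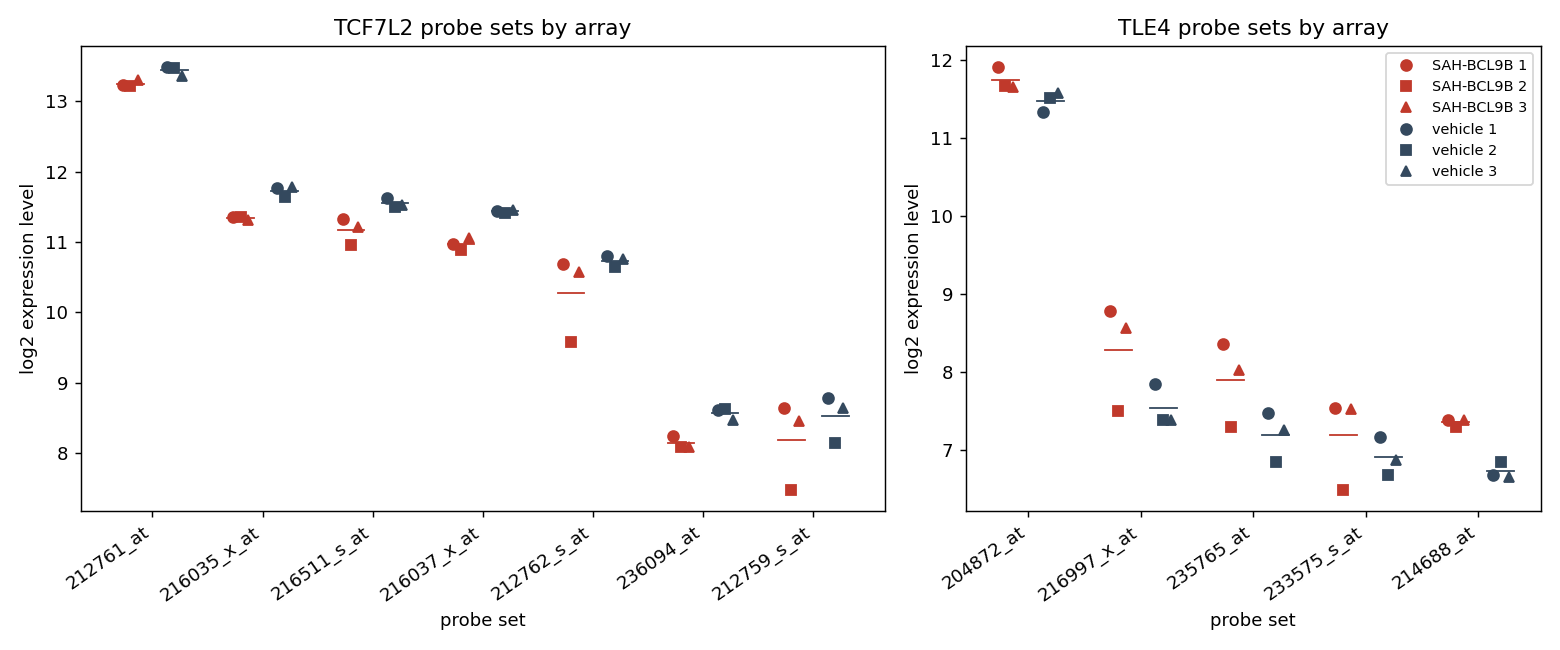
Log2 expression level of each TCF7L2 (left) and TLE4 (right) probe set in every array, SAH-BCL9B in red and vehicle in dark blue, with the replicate number as the marker shape and group means as lines. SAH-BCL9B 2 (red squares) is far below the other SAH-BCL9B arrays in 212762_s_at and 212759_s_at of TCF7L2 and in 216997_x_at, 235765_at and 233575_s_at of TLE4.

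Whether the 7 probe sets of TCF7L2 moved unequally was tested directly, as each probe set minus the mean of the gene's others. None of the 7 passed in limma. With all 6 arrays the largest difference was that of the brightest, 212761_at, whose change was 0.22 ± 0.14 less negative than the mean of the rest (SE, adjusted p = 0.643, 95% interval -0.11 to 0.54). Without SAH-BCL9B 2 it was 0.09, and the largest was that of 212759_s_at, at 0.32. With all 6 arrays the interval leaves room for a difference as large as the change itself. Where each probe set lies on the TCF7L2 transcripts is not given in the sources used here, so the values cannot be assigned to transcript ends. Averaged over all 7 probe sets, TCF7L2 read 10.64, 10.23 and 10.58 in the SAH-BCL9B arrays and 10.93, 10.78 and 10.86 in the vehicle arrays. The change of that average was -0.38 ± 0.11 (SE) and did not pass over 19775 genes (limma adjusted p = 0.111, against 4.94% of genes that did). Without SAH-BCL9B 2 it was -0.25 (adjusted p = 0.112).

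TCF7L1 and LEF1 had no called probe set. TCF7L1 read 6.17, 6.35 and 5.85 in the SAH-BCL9B arrays and 6.21, 6.57 and 6.45 in the vehicle arrays, a change of -0.29 ± 0.15 (SE, limma adjusted p = 0.434, 95% interval -0.63 to 0.06). Without SAH-BCL9B 3, its lowest array, the change was -0.15 (adjusted p = 0.72). The groups overlap, at a level inside the range of the tissue-restricted genes. For LEF1 the brightest probe set, 221558_s_at, read 12.11, 11.99 and 11.92 with SAH-BCL9B and 12.13, 12.18 and 12.06 with vehicle. Its change was -0.11 ± 0.09 (adjusted p = 0.657, 95% interval -0.32 to 0.10), and those of 210948_s_at and 221557_s_at were -0.16 and -0.06. In none of the 3 did the groups separate, and for the bright probe set a change beyond -0.32 lies outside the interval.

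TLE4 was the corepressor with a probe set that rose. That probe set, 214688_at, read 7.39, 7.30 and 7.39 in the SAH-BCL9B arrays and 6.68, 6.85 and 6.65 in the vehicle arrays. All 3 SAH-BCL9B arrays lay above all 3 vehicle arrays, and the mean was 1.55-fold higher, a log2 change of 0.63 ± 0.09 (SE, limma adjusted p = 0.0195, 95% interval 0.42 to 0.84). The vehicle mean of 6.73 lies at the array medians and inside the range of the tissue-restricted genes, where RMA understates changes. Without SAH-BCL9B 2 the probe set passed (adjusted p = 0.0231), and without any 1 of the other 5 arrays it did not (adjusted p = 0.0605 to 0.113), with changes of 0.59 to 0.69 over the 6 fits.

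The brightest TLE4 probe set, 204872_at, read 11.91, 11.67 and 11.66 in the SAH-BCL9B arrays and 11.33, 11.51 and 11.58 in the vehicle arrays. The groups did not overlap here either, by a narrow margin, and the change of 0.27 ± 0.11 did not pass (SE, limma adjusted p = 0.297, 95% interval 0.01 to 0.53). For the same gene 216997_x_at read 8.78, 7.49 and 8.57 with SAH-BCL9B and 7.85, 7.38 and 7.39 with vehicle. SAH-BCL9B 1 and 3 were above every vehicle array there, and SAH-BCL9B 2 lay within the vehicle range. At 235765_at the values were 8.36, 7.30 and 8.02, against 7.48, 6.84 and 7.26 in vehicle. At 233575_s_at they were 7.54, 6.49 and 7.53, against 7.16, 6.68 and 6.87. SAH-BCL9B 2 is again the low SAH-BCL9B array in each, and vehicle 2 is the low vehicle array.

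With all arrays the changes of these 3 TLE4 probe sets were 0.74 ± 0.32, 0.70 ± 0.28 and 0.28 ± 0.28 (SE, limma adjusted p = 0.325, 0.275 and 0.748). Without SAH-BCL9B 2 they were 1.13, 0.998 and 0.63 (adjusted p = 0.0204, 0.045 and 0.0693), and 3 of the 5 TLE4 probe sets passed, against 2.71% of all probe sets in that fit. With the ACTB 3′ minus 5′ difference of each array as a covariate they were 1.18, 1.01 and 0.67 (adjusted p = 0.0192, 0.0566 and 0.0547). Over the whole array 1.93% of probe sets read at least 1 log2 unit lower in SAH-BCL9B 2 than the mean of the other 2 SAH-BCL9B arrays. Among the members 4 of 27 did: 212762_s_at and 212759_s_at of TCF7L2 and 216997_x_at and 233575_s_at of TLE4. The part of RNA quality or labelling in this was not tested beyond that covariate.

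**Figure D4:**
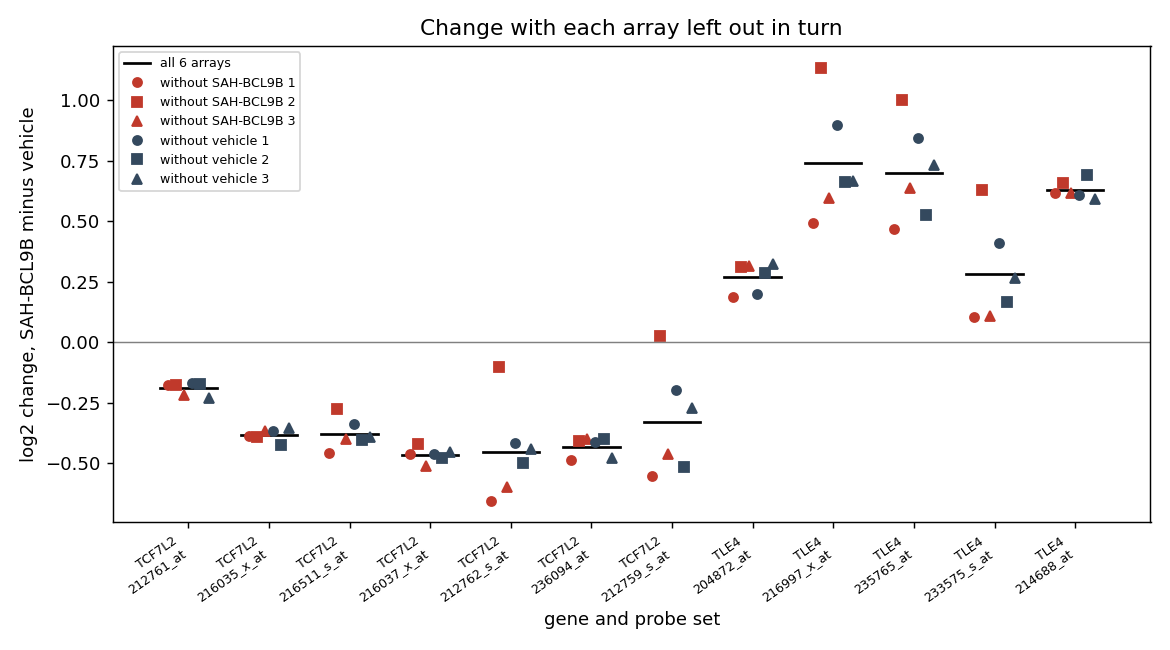
Log2 change (SAH-BCL9B minus vehicle) of the TCF7L2 and TLE4 probe sets with all 6 arrays (black lines) and with each array left out in turn (red, SAH-BCL9B arrays; dark blue, vehicle arrays). Leaving out SAH-BCL9B 2 moves 212759_s_at to 0.03 and 216997_x_at to 1.13, while 216037_x_at stays between -0.51 and -0.42.

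With all 6 arrays no TLE4 probe set passed limma's test against the mean of the gene's others (adjusted p = 0.525 to 0.889). Without SAH-BCL9B 2 none passed either. There 204872_at differed from the others by -0.55 and 216997_x_at by 0.48 (limma adjusted p = 0.197 and 0.166). The average over the 5 was 8.79, 8.05 and 8.63 in the SAH-BCL9B arrays and 8.10, 7.85 and 7.95 in the vehicle arrays. SAH-BCL9B 2 lay below vehicle 1 in that average, and the change of 0.52 ± 0.18 did not pass over all genes (SE, adjusted p = 0.15). Without SAH-BCL9B 2 the change of the average was 0.75 ± 0.10 and passed (SE, limma adjusted p = 0.00853, against 5.85% of all genes). Of the 5 averaged probe sets, 4 lie at or under 7.62, the tissue-restricted level given above. The brightest, 204872_at, passed in 0 of the 15 alternatives described below, that fit among them. The sequences before the first RefSeq start sites of the genes with a called probe set are shown because TCF/LEF proteins bind DNA and their own recognition letters can be looked for there. The letters CTTTGA, 1 form of the TCF/LEF core, were searched on both strands in the 250 bases before each start site (RefSeq, GRCh38.p14). Matches are in capitals, and other forms of the core were not searched. TLE4 (chr9:79571715-79571964, plus strand) holds 1 match, on the reverse strand (TCAAAG), beginning 19 bases before the start:
TLE4: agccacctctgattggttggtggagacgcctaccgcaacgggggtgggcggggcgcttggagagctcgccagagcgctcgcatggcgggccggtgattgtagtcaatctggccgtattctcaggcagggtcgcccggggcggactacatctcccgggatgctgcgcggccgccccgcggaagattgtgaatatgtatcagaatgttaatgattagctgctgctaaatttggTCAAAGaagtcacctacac
TCF7L2 (chr10:112949997-112950246, plus strand) holds no match to these letters in this window:
TCF7L2: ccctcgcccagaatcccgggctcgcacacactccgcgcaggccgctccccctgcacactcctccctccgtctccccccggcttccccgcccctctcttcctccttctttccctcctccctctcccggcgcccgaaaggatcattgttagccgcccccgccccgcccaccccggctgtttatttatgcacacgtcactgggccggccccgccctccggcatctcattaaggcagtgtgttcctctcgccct

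The window of the second TLE4 start site holds 1 match too, on the forward strand. Over the 8 listed genes, which all matched the RefSeq table by symbol, 2 of 15 windows hold this form, and both belong to TLE4. Of all 35116 windows of that length in the table, 11.2% do. A match is a run of letters and not evidence of binding.

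TLE3, another full-length TLE corepressor, showed no call. Its probe set 212770_at read 9.35, 9.10 and 9.07 in the SAH-BCL9B arrays and 9.65, 9.62 and 9.45 in the vehicle arrays. The groups did not overlap, and the change was -0.40 ± 0.11 (SE, limma adjusted p = 0.118, 95% interval -0.66 to -0.15). At 228340_at the SAH-BCL9B arrays read 7.99, 8.02 and 7.94 and the vehicle arrays 8.27, 8.17 and 8.04, a change of -0.18 ± 0.09 (adjusted p = 0.419). The remaining TLE3 probe sets, 206472_s_at and 212769_at, had -0.001 and -0.09 with overlapping groups. Set against the mean of the other 3, 212770_at differed by -0.31 ± 0.12 (SE), which did not pass (limma adjusted p = 0.339). It was the 1 member probe set of 26 in that test with an unadjusted p under 0.05. The share of all probe sets under that cut was not counted, so this count is no result about the members. Of the 26, 0 passed the adjusted threshold, against 0.349% of all 31839 tested.

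TLE1 and TLE2 gave values near 0. Both probe sets of TLE2 and 2 of TLE1 lie at or under 7.62, where RMA understates changes. Values near 0 there say little about the transcript. The 5 probe sets of TLE1, the family member best known as a partner of many repressors, had changes of -0.11 to 0.09, and the brightest, 203221_at, read 10.19, 10.01 and 10.12 with SAH-BCL9B and 10.20, 10.22 and 10.18 with vehicle. Its change was -0.09 ± 0.08 (SE, limma adjusted p = 0.724, 95% interval -0.29 to 0.11). For TLE2 the probe set 40837_at had 6.73, 6.74 and 6.67 in the SAH-BCL9B arrays and 6.60, 6.69 and 6.84 in the vehicle arrays, a change of 0.004 ± 0.09, and 204431_at had -0.06. No probe set of either gene separated the groups. A change beyond 0.3 in either direction lies outside the interval of TLE1's brightest probe set.

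The TLE relatives outside the list were chosen for display after their values were seen. TLE5, a short family member without the WD repeats that can act against the longer ones, read 9.36, 9.31 and 9.08 with SAH-BCL9B and 9.11, 9.28 and 9.19 with vehicle (change 0.06 ± 0.10, SE, limma adjusted p = 0.882). TLE6 had a change of -0.05 ± 0.14 (adjusted p = 0.934). Both overlapped between the groups.

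Partners of the TCF/LEF and TLE proteins were followed with 1 probe set a gene, the brightest. Of 26 measured beta-catenin and TCF cofactor genes, limma called 1 downward and 0 upward, with a median change of -0.03. Of 23 measured TLE relatives and corepressor partners (26 listed), it called 1 downward and 0 upward, with a median of 0.02. Of all 19775 genes 3.53% passed by the same measure, with p-values adjusted over all probe sets, and the median was 0.02.

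The cofactor that fell was TBL1X, which encodes a WD-repeat subunit of the NCoR and SMRT corepressor complexes and is also known to bind beta-catenin. It read 10.80, 10.72 and 10.71 in the SAH-BCL9B arrays and 11.29, 11.23 and 11.22 in the vehicle arrays. The groups lay well apart, and the change was -0.51 ± 0.08 (SE, limma adjusted p = 0.0251), in 1 of its 6 probe sets past the threshold. Without SAH-BCL9B 2 it passed (0.0382), and without any 1 of the other 5 arrays it did not (adjusted p = 0.0805 to 0.138).

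Its paralog TBL1XR1 read 12.63, 12.83 and 12.73 with SAH-BCL9B and 13.19, 13.07 and 13.11 with vehicle, a change of -0.39 ± 0.09 (SE, limma adjusted p = 0.0743). Of its 6 probe sets 1 passed, 221428_s_at, with -0.57 (adjusted p = 0.0409), and it missed the threshold without 5 of the 6 arrays in turn (0.056 to 0.186). The other changes of TBL1XR1 ran from -0.70 to 0.04. The corepressor gene CTBP2 read 13.79, 13.58 and 13.65 with SAH-BCL9B, against 14.00, 13.93 and 14.04 with vehicle (change -0.32 ± 0.09, adjusted p = 0.138). In both genes every SAH-BCL9B array was below every vehicle array at the brightest probe set. The groups did not overlap in 7 of the 26 measured cofactor genes, against 28.3% of all genes.

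The TLE partner that fell was RUNX2, a Runt-domain factor that recruits TLE proteins through its C-terminal motif. It read 11.65, 11.61 and 11.58 in the SAH-BCL9B arrays and 12.55, 12.57 and 12.35 in the vehicle arrays. The change was -0.87 ± 0.09 (SE, limma adjusted p = 0.00831), in 1 of its 6 probe sets past the threshold. It missed the threshold without vehicle 1, vehicle 2 or SAH-BCL9B 3 (adjusted p = 0.0635, 0.0523 and 0.0613).

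ZNF703, a zinc finger repressor known to bind TLE proteins, and PRDM1, a repressor that recruits them, followed in order of p. ZNF703 read 11.83, 11.62 and 11.65 with SAH-BCL9B and 11.24, 11.35 and 11.26 with vehicle (change 0.42 ± 0.09, SE, limma adjusted p = 0.0676). PRDM1 read 7.15, 7.41 and 7.05 with SAH-BCL9B and 6.84, 6.64 and 6.67 with vehicle (change 0.49 ± 0.12, adjusted p = 0.086). Neither passed. The groups did not overlap in either, which held for 5 of the 23 measured genes of that list and for 28.3% of all genes.

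The genes whose levels followed the called TLE4 probe set 214688_at most closely over the 6 arrays were IGF2R, DPH3, SLC17A5, LINC01128 and ANXA2P2, with Pearson correlations of 0.996 to 0.999. The 6 points share the split into 3 treated and 3 vehicle arrays, and 495 of 19768 genes had a correlation above 0.95, so the order is a description of these arrays. Log2 changes of the 5 ran from 0.19 for ANXA2P2, a pseudogene whose probes may also bind its parent gene, to 0.69 for DPH3. DPH3 and SLC17A5 passed the test (limma adjusted p = 0.0158 and 0.0232).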

How the data were processed

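The authors deposited log2 expression values for 54675 probe sets on each of 6 arrays, made with RMA and affy per the submitters' processing notes, which give no versions here. RMA equalises the distribution of the arrays, which hides a shift common to most genes, and it shrinks changes of dim probe sets. No scanner files or detection calls were used, so signal over background is unknown, and the number of arrays limits the precision. No scan batch is given in the sources.

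Names came from GEO's platform annotation, checked by Entrez ID against RefSeq. After 62 controls were left out, 54613 probe sets were fitted with limma 3.58.1 (R 4.3.3; lmFit, then eBayes; no covariates) for SAH-BCL9B minus vehicle, with Benjamini-Hochberg adjustment over all of them, a threshold of 0.05 and no filter. A second limma test used, per array, each probe set minus the mean of its gene's others. In simulated data with 54613 probe sets, 2 of 100 changes of 0.5 and 50 of 100 changes of 1 were recovered, with 1 false call. No other probe sets were changed there, whereas 1363 passed in the real fit. The adjustment is therefore stricter in the simulation, and these rates do not give the sensitivity of the real fit. Members, lists and alternatives were chosen with earlier results of these data known. Named partners are those past the threshold, or the 3 with the smallest p in a list; named lookalikes are the 5 genes with the highest correlation. Plots were drawn with matplotlib 3.10.9.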

Additional observations from a re-analysis of the deposited data

How the results depend on the processing

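Alternatives were a filter on low values, array weights, median centring, a repeated quantile normalization, a robust fit with a variance trend, the SD or the ACTB difference of each array as a covariate, a replicate block, vehicle 3 and SAH-BCL9B 2 left out, and each array left out. All 15 kept the sign of 6 of the 7 TCF7L2 probe sets and of all 5 TLE4 probe sets; 212759_s_at of TCF7L2 turned positive in 3 of them (up to 0.08). The 2 member calls became 4 with the filter, 5 with the trend, 4 with array weights and 6 with the array SD, and 0 to 3 with an array left out. They became 0 with 1 probe set a gene and 0 with a gene's probe sets averaged. There limma gave 3 and 2 of 7 genes an unadjusted p under 0.05. The share of all genes under that cut was not counted, so neither count is a result about the members. With the ACTB covariate 216037_x_at missed the threshold (adjusted p = 0.057), as it did without vehicle 3 and SAH-BCL9B 2 (0.0992); its adjusted p ran from 0.0039 to 0.176, and that of 214688_at from 0.00697 to 0.113. Probe sets past the threshold numbered 1363 over the whole array, 2725 with the filter, 2923 with the trend, 2738 with array weights, 2983 with the array SD, 836 without vehicle 3 and SAH-BCL9B 2, and 97 to 1478 with an array left out. Member calls thus rose where calls rose over the whole array, and the higher counts are no result about the members alone. Such counts are not given here for the ACTB covariate, median centring or the repeated quantile normalization. The 2 partner genes became 6 with the filter, 6 with the trend, 4 with array weights, 5 with the array SD, 1 without vehicle 3 and SAH-BCL9B 2, and 0 to 2 with an array left out. With the replicate number as a block, 171 probe sets, 0 members (limma adjusted p = 0.124 for 216037_x_at and 0.0953 for 214688_at) and 1 partner passed. Same-numbered arrays had deviations correlated at 0.41, 0.06 and -0.31, and differently numbered arrays at -0.48 to 0.38. With 3 arrays a group these values cannot decide whether same-numbered arrays are paired. Leaving out each array for the gene averages, the family medians and the epithelial markers was chosen after seeing the data; of the 7 gene averages only that of TLE4 passed in any of the 6 fits, and only without SAH-BCL9B 2. Within-gene differences of members stayed at 0 calls in every alternative. The filter tests fewer probe sets and the left-out fits use fewer arrays; the cause of the other shifts was not tested.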
